A study of Mus musculus with 4 samples.

Results

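Endothelial leukocyte adhesion genes are described here across the nuclei of mouse hearts: the selectins Sele and Selp, the immunoglobulin-superfamily adhesion molecules Vcam1, Icam1 and Icam2, the clotting glycoprotein gene Vwf, the secreted glycoprotein gene Lrg1 and the chemokine receptor gene Ackr1. The members were found by symbol, and all 8 were present among the 33954 genes of the count matrices. Their identifiers in the files were ENSMUSG00000026582 for Sele, ENSMUSG00000026580 for Selp, ENSMUSG00000027962 for Vcam1, ENSMUSG00000037405 for Icam1, ENSMUSG00000001029 for Icam2, ENSMUSG00000001930 for Vwf, ENSMUSG00000037095 for Lrg1 and ENSMUSG00000037872 for Ackr1. The study asked how a stop-gained allele of the growth factor gene Vegfa, made by genome editing and named Q150X, acts in adult hearts, both uninjured and infarcted. Single nuclei of whole hearts were profiled in 4 libraries, 1 per group: Q150X hearts 3 days after infarction (labelled 3dpMI), wild-type (WT) hearts 3 days after infarction, Q150X hearts at homeostasis and WT hearts at homeostasis. The labels abbreviate the mutant genotype as ho without spelling out its zygosity, and they do not say whether a library held 1 heart or several. With 1 library per group no difference could be tested against replicates. Intervals below are 95% intervals for counting error only, exact Poisson for a level, exact binomial for a share and exact conditional binomial for a ratio. A difference between log2 ratios has a normal approximation instead. Bounds given with a median over members are medians of the members' own bounds, not an interval of that median.

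Leukocytes leave the blood in steps. Selectins on activated endothelium slow the cells by binding glycans on their surface, chemokines then activate leukocyte integrins, and the integrins hold to ICAM and VCAM proteins before the cells cross the vessel wall. Selp protein and von Willebrand factor, the product of Vwf, are stored together in Weibel-Palade bodies of endothelial cells, whereas Sele is made on demand, in large part under the inflammatory transcription factor NF-kB.

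Sequences upstream of 5 of the 8 members were at hand, from RefSeq on the build GRCm38.p6, each window running from 250 bases before to 50 bases after the gene start. The 250 upstream bases of Sele and Selp are printed because these genes had at most 2 unique molecular identifiers (UMIs, counted RNA molecules) in any homeostasis library, and those of Icam1 because it was present at homeostasis. Capitals mark matches on either strand to GGNNNTTCC, letters found in many NF-kB sites.
Sele: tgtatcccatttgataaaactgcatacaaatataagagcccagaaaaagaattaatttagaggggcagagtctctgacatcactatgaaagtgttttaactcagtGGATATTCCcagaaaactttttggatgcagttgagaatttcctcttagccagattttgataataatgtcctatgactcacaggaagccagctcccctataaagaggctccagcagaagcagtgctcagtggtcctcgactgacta
Selp: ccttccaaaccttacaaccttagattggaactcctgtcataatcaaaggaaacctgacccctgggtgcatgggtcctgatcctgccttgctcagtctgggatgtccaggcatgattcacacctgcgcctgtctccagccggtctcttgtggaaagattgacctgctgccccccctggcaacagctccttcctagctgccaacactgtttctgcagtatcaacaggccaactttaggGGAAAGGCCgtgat
Icam1: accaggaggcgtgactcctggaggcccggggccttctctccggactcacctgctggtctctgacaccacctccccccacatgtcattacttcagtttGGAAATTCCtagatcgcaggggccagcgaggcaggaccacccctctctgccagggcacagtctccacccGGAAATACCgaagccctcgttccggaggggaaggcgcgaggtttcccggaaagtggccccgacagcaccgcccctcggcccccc
The Sele stretch is chr1:164047984-164048233 and the Selp stretch is chr1:164115014-164115263, both on the plus strand. The Icam1 stretch is chr9:21015690-21015939, also on the plus strand. A GGNNNTTCC match began at base -145 from the start in Sele, at -14 in Selp, and at -153 and -84 in Icam1; Lrg1 held 1 at -33 and Ackr1 held 1 at -131. Of 32851 mouse promoters of the same 300-base length, 18.5% held these letters. The letters TGANTCA, which AP-1 factors can bind, were found in Sele at -73 and in Selp at -139, and in 7.81% of all promoters. The TTCNNNGAA letters of STAT sites occurred in Sele at -140, where they overlap the GGNNNTTCC match, and in Icam1 at -42, and in 8.30% of all promoters. GATAA was found in Sele at -238 and -88 and in Ackr1 at base 26 after the start, and in 25.4% of all promoters. The full 10-letter NF-kB consensus was in none of the 5 windows and in 8.46% of all promoters. All motifs were searched on both strands, and a match describes letters, not binding.

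The 4 libraries held 28216 nuclei, of which 26152 were kept, with median UMIs per nucleus of 2671 and 2029 in the Q150X and WT 3dpMI libraries and 968 and 921 in the Q150X and WT homeostasis libraries. Between 149 and 251 barcodes of a library occurred in another library as well. Clusters were named from marker genes as vascular endothelial-like (1445, 2582, 726 and 547 nuclei in the order Q150X 3dpMI, WT 3dpMI, Q150X homeostasis, WT homeostasis), endocardial-like (132, 211, 240 and 89) and fibroblast-like (1672, 1673, 2860 and 1465), among others; "like" is left out from here on. The members were kept out of the genes used for clustering. Selp and Vwf were still among the 10 leading genes of 1 vascular endothelial cluster, cluster 11, and Selp and Sele among those of the venous sub-cluster. The levels of these members by subtype are therefore descriptive. The vascular endothelial nuclei expressed 18 endothelial markers at a summed 22036, 22983, 20671 and 21905 counts per 1e6 UMIs (CPM) in that same order, and the homeostasis nuclei also carried RNA of other cells. The summed level of 15 cardiomyocyte markers in them was 1365 CPM in Q150X 3dpMI, 5398 CPM in WT 3dpMI, 9305 CPM in Q150X homeostasis and 3798 CPM in WT homeostasis, and that of 8 erythroid markers was 89.5, 85.7, 8785 and 1024 CPM. A sub-cluster led by Hbb-bs, Cacna1c and Ryr2 made up 0.692%, 3.45%, 59.6% and 21.0% of the vascular endothelial nuclei of those libraries. Different clusters held most of this class: cluster 5 with 57.9% in Q150X 3dpMI, and cluster 2 with 51.7% in WT 3dpMI, 73.6% in Q150X homeostasis and 92.1% in WT homeostasis. The Q150X allele is a stop codon, so Vegfa counts do not check the genotype; in cardiomyocytes Vegfa had 699 CPM in Q150X 3dpMI, 592 CPM in WT 3dpMI, 923 CPM in Q150X homeostasis and 715 CPM in WT homeostasis. Levels are CPM of UMIs summed over a class. In sums over all nuclei, fewer cells of a type and less RNA per cell cannot be told apart.

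Sele encodes E-selectin, and of its 382 UMIs over the 4 libraries 381 came from the infarcted hearts. Over all nuclei it had 209 UMIs (7.73 CPM, 6.72–8.85) in Q150X 3dpMI and 172 UMIs (6.47 CPM, 5.54–7.52) in WT 3dpMI, against 1 UMI in Q150X homeostasis and 0 UMIs in WT homeostasis. In vascular endothelial nuclei the level was 43.7 CPM (37.2–51.0) in Q150X 3dpMI, 22.2 CPM (18.0–27.0) in WT 3dpMI and 0 UMIs in both homeostasis libraries. Sele was therefore high in the 2 infarcted libraries and at 0 in the endothelium of the other 2. Set against a floor of 3 UMIs in the homeostasis library, the 3dpMI level was 8.09-fold higher in Q150X and 4.01-fold higher in WT. The exact lower limits of the ratios were 6.51 in Q150X and 3.20 in WT. That floor corresponds to 0.413% of the 726 Q150X and 0.548% of the 547 WT homeostasis endothelial nuclei, and it is not an exact upper limit. A count of 0 sets no limit on nuclei that express the gene below this depth.

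Between the infarcted hearts, the vascular endothelial Sele level was 1.97 times as high in Q150X as in WT (1.52–2.56). The share of vascular endothelial nuclei with a Sele UMI was 4.64% in Q150X 3dpMI and 2.09% in WT 3dpMI, at median depths of 1963 and 1252.5 UMIs. Cardiomyocytes, which should lack Sele, showed it in 0.525% and 0.338% of nuclei at the larger depths of 7762 and 6033 UMIs. After thinning each nucleus to 500 UMIs, which left out none, the endothelial shares were 1.32% in Q150X 3dpMI and 0.649% in WT 3dpMI, and those of cardiomyocytes 0.0236% and 0.109%. The endothelial level in both infarcted libraries thus stood above that of cardiomyocytes, also at equal depth.

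Within the vascular endothelium, venous nuclei carried most of the Sele. They held 118 UMIs (105 CPM, 86.5–125) in Q150X 3dpMI and 77 UMIs (77.4 CPM, 61.1–96.7) in WT 3dpMI, a ratio of 1.35 (1.01–1.82). Angiogenic nuclei had 17.1 CPM in Q150X 3dpMI and 5.83 CPM in WT 3dpMI (ratio 2.93, 1.17–8.72), and capillary nuclei had 12.6 and 2.16 CPM from 4 and 3 UMIs. With a coarser sub-clustering the angiogenic levels were 14.5 CPM in Q150X 3dpMI and 8.64 CPM in WT 3dpMI, a ratio of 1.68 whose interval included 1 (0.820–3.66). The venous level was the highest of the subtypes in both infarcted libraries. Homeostasis could not be compared within venous nuclei at the main setting, since only 20 Q150X and 1 WT homeostasis nuclei fell there. With the coarser sub-clustering, 214 Q150X and 53 WT homeostasis nuclei were venous and held 0 Sele UMIs. The main setting set apart the sub-cluster led by Hbb-bs, Cacna1c and Ryr2, with 437 Q150X and 117 WT homeostasis nuclei. The coarser setting did not, so its venous homeostasis nuclei can include nuclei with RNA of other cells. Venous nuclei were 25.6% of vascular endothelial nuclei in Q150X 3dpMI and 16.8% in WT 3dpMI, and how far this moved the ratio of 1.97 in the whole class was not tested beyond the within-venous value of 1.35.

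Pericytes, the mural cells around capillaries, also showed Sele: 19.6 CPM (12.1–29.99) in Q150X 3dpMI and 18.3 CPM (12.4–25.9) in WT 3dpMI, against 1.44 CPM in Q150X homeostasis and 0 UMIs in WT homeostasis. The 18 endothelial markers summed to 1941, 3495, 2494 and 7046 CPM in the pericytes of those libraries, below their 20671 to 22983 CPM in vascular endothelial nuclei. The part of endothelial RNA in the pericyte signal was not tested.

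**Figure D1:**
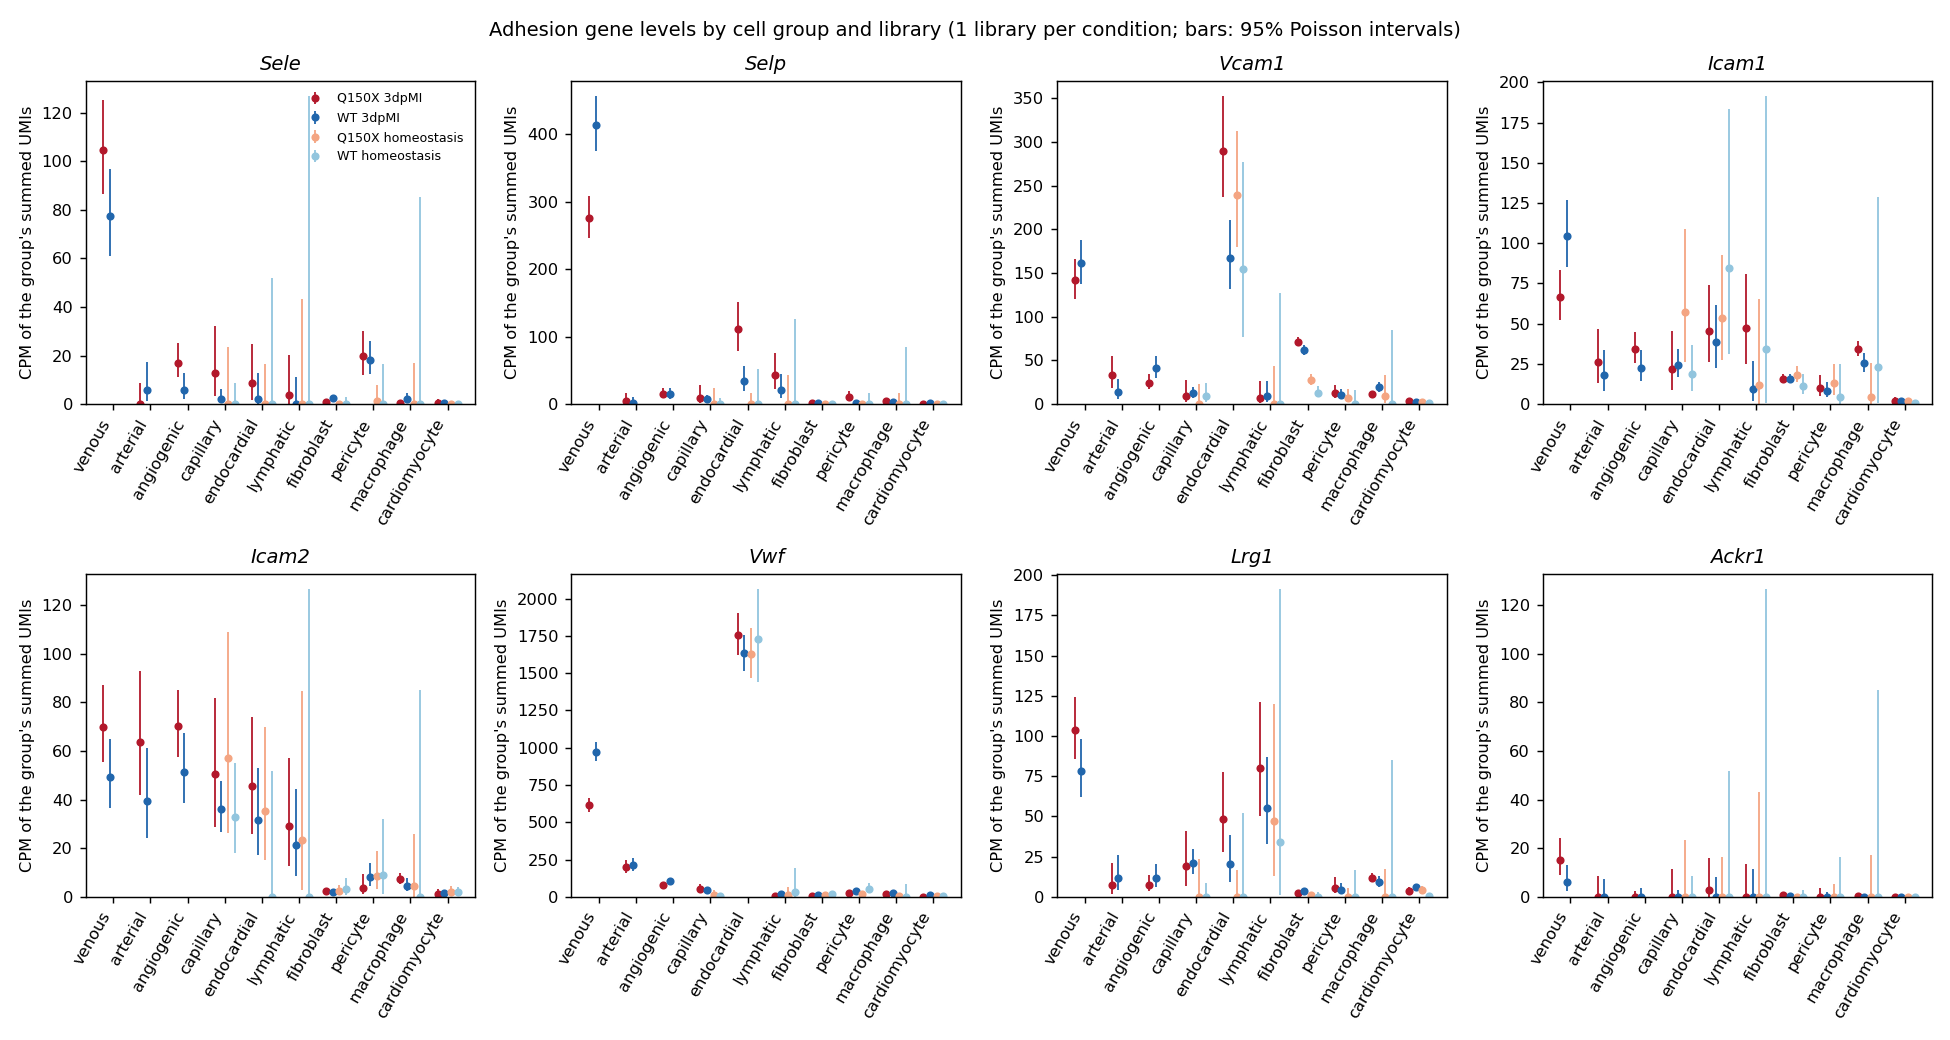
Level of each member (CPM of summed UMIs on a linear axis that differs between panels, with 95% Poisson bars) by cell group in the 4 libraries, Q150X before WT and 3dpMI before homeostasis. Sele and Selp reach 105 and 276 CPM in Q150X 3dpMI venous nuclei and 77.4 and 414 CPM in WT 3dpMI venous nuclei, while Vwf lies between 1628 and 1759 CPM in endocardial nuclei of the 4 libraries.

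Selp encodes P-selectin, the selectin kept in Weibel-Palade bodies, and it too was found after infarction and hardly at homeostasis. Over all nuclei it had 505 UMIs in Q150X 3dpMI and 550 UMIs in WT 3dpMI, against 0 UMIs in Q150X homeostasis and 2 UMIs in WT homeostasis. The vascular endothelial level was 100 CPM (90.4–111) in Q150X 3dpMI and 109 CPM (99.0–119) in WT 3dpMI, against 0 UMIs in Q150X homeostasis and 1.84 CPM, from 1 UMI, in WT homeostasis. The infarcted libraries were high and the homeostasis libraries near 0. In Q150X the 3dpMI level was 18.6-fold higher at the floor of 3 UMIs, a value that is not an exact lower limit. In WT it was 58.9-fold higher (10.5–2329). The WT value came to 17.2-fold when every nucleus was weighted equally.

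Between genotypes at 3dpMI the Selp ratio of Q150X to WT was 0.924 in vascular endothelial nuclei (0.805–1.06), an interval that includes 1, and 1.21 when nuclei were weighted equally. A few nuclei carried many UMIs: the highest count in 1 nucleus was 44 UMIs in Q150X 3dpMI and 83 UMIs in WT 3dpMI. In venous nuclei the level was 276 CPM (247–309) in Q150X 3dpMI and 414 CPM (375–456) in WT 3dpMI, a ratio of 0.668 (0.574–0.775) that includes those nuclei. The share of venous nuclei with a Selp UMI was 18.1% in Q150X 3dpMI and 15.9% in WT 3dpMI, and after thinning it was 6.30% and 6.63%. The venous level was thus lower in Q150X than in WT by UMIs, while the shares of nuclei differed little.

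Endocardial nuclei, which line the heart chambers, showed the opposite order for Selp: 39 UMIs (111 CPM, 78.8–152) in Q150X 3dpMI and 15 UMIs (34.0 CPM, 19.0–56.0) in WT 3dpMI, against 0 UMIs in both homeostasis libraries. The ratio of Q150X to WT at 3dpMI was 3.26 (1.76–6.37). Lymphatic endothelial nuclei had 43.6 CPM from 12 UMIs in Q150X 3dpMI and 21.5 CPM from 7 UMIs in WT 3dpMI. Vascular endothelial nuclei held 73.3% of all Selp UMIs in Q150X 3dpMI and 86.4% in WT 3dpMI, from 19.6% and 30.5% of the nuclei.

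Sele and Selp were looked up together in single venous nuclei. In Q150X 3dpMI, 25 of 67 venous nuclei with a Selp UMI (37.3%) also held a Sele UMI, against 22 of 303 without one (7.26%). In WT 3dpMI the counts were 24 of 69 (34.8%) and 15 of 365 (4.11%). Nuclei with a Selp UMI were deeper, with median totals of 3690 and 2271 UMIs with and without one in Q150X 3dpMI and 2962 and 1709 UMIs in WT 3dpMI, and the part of depth in the overlap was not tested.

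Vcam1 encodes the ligand of the leukocyte integrin VLA-4, and in these hearts most of its RNA did not come from vessels. Over all nuclei it had 1198 UMIs (44.3 CPM) in Q150X 3dpMI, 926 UMIs (34.9 CPM) in WT 3dpMI, 204 UMIs (24.3 CPM) in Q150X homeostasis and 44 UMIs (8.003 CPM) in WT homeostasis. Fibroblasts held 59.3%, 48.1%, 43.1% and 38.6% of those UMIs in the same order. Their level was 71.5 CPM (66.3–76.9) in Q150X 3dpMI, 61.5 CPM (55.9–67.5) in WT 3dpMI, 27.9 CPM (22.4–34.4) in Q150X homeostasis and 12.99 CPM (7.56–20.8) in WT homeostasis. Fibroblast Vcam1 was thus highest in the infarcted hearts and lowest in WT hearts at homeostasis.

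The fibroblast level at 3dpMI was 2.56 times that at homeostasis in Q150X (2.05–3.23) and 4.74 times in WT (2.92–8.20). Between genotypes the fibroblast ratio of Q150X to WT was 1.16 at 3dpMI (1.03–1.31) and 2.15 at homeostasis (1.27–3.86). Different fibroblast clusters held most of the class at the 2 times. Within the cluster that held most homeostasis fibroblasts, 3dpMI was 1.52 times homeostasis in Q150X (0.841–2.58), an interval that includes 1, and 3.32 times in WT (1.76–6.71). There the Q150X to WT ratio at homeostasis was 2.37 (1.31–4.66), and within the cluster that held most 3dpMI UMIs the levels were 75.2 CPM in Q150X 3dpMI and 71.0 CPM in WT 3dpMI. Cardiomyocytes had 3.36, 2.84, 2.002 and 1.29 CPM of Vcam1 in the same library order, well below the fibroblasts.

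Per nucleus class, Vcam1 was highest in the endocardium: 290 CPM (236–352) in Q150X 3dpMI, 168 CPM (132–210) in WT 3dpMI, 240 CPM (180–313) in Q150X homeostasis and 155 CPM (77.2–277) in WT homeostasis. Endocardial Vcam1 was 1.73 times as high in Q150X as in WT at 3dpMI (1.27–2.37) and 1.55 times at homeostasis (0.8003–3.28), and the 3dpMI to homeostasis ratio was 1.21 in Q150X and 1.08 in WT, both with intervals that include 1. The genotype ratios depended on which nuclei were counted as endocardial: over the sub-clusters given that name they were 1.31 at 3dpMI (0.981–1.75) and 2.86 at homeostasis (1.31–7.42), the homeostasis value resting on 7 WT UMIs. Vascular endothelial nuclei had 64.5 CPM (56.6–73.3) in Q150X 3dpMI, 58.7 CPM (51.8–66.4) in WT 3dpMI, 73.7 CPM (52.9–100) in Q150X homeostasis and 12.9 CPM (5.19–26.6) in WT homeostasis. The WT homeostasis library, with 7 UMIs, stood below the other 3, which overlapped. In these nuclei the Q150X to WT ratio was 1.10 at 3dpMI (0.917–1.32) and 5.71 at homeostasis (2.54–15.1). Without doublet removal the homeostasis ratio was 2.18. The 3dpMI to homeostasis ratio was 0.875 in Q150X (0.626–1.25) and 4.55 in WT (2.18–11.4).

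Vascular Vcam1 was concentrated in venous nuclei, with 142 CPM in Q150X 3dpMI and 161 CPM in WT 3dpMI (ratio 0.882, 0.704–1.10), against 9.45 and 12.2 CPM in capillary nuclei. With the coarser sub-clustering, venous nuclei had 145 CPM in Q150X 3dpMI, 170 CPM in WT 3dpMI, 153 CPM in Q150X homeostasis and 142 CPM in WT homeostasis. All 4 ratios between these libraries had intervals that include 1. The homeostasis values can include nuclei of the sub-cluster led by Hbb-bs, Cacna1c and Ryr2, which the coarser setting did not set apart. Cluster 11 held 18.9% of Q150X and 5.30% of WT homeostasis endothelial nuclei, and Vcam1 had 239 and 124 CPM there. These were 137 Q150X and 29 WT homeostasis nuclei, while only 20 and 1 of the class were venous at the main setting. The overlap of this cluster with the venous nuclei was not counted. Macrophages had 11.2 CPM in Q150X 3dpMI and 19.1 CPM in WT 3dpMI (ratio 0.585, 0.406–0.848).

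Icam1 encodes the ligand of the leukocyte integrins LFA-1 and Mac-1 and was shared between vessels and leukocytes. In vascular endothelial nuclei it had 42.0 CPM (35.7–49.2) in Q150X 3dpMI, 45.0 CPM (39.0–51.8) in WT 3dpMI, 54.0 CPM (36.4–77.0) in Q150X homeostasis and 20.3 CPM (10.1–36.3) in WT homeostasis. As for Vcam1, WT homeostasis was the low library, with 11 UMIs, and the other 3 overlapped. The Q150X to WT ratio was 0.934 at 3dpMI (0.752–1.16) and 2.66 at homeostasis (1.30–5.88); 5 of the 11 WT UMIs lay in 1 nucleus, and with nuclei weighted equally the homeostasis ratio was 6.01. The 3dpMI to homeostasis ratio was 0.779 in Q150X (0.524–1.19) and 2.22 in WT (1.21–4.52), and in nuclei of at least 1000 UMIs these were 1.34 and 1.30.

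Venous nuclei again had the highest vascular Icam1 at 3dpMI, 66.5 CPM (52.3–83.3) in Q150X and 105 CPM (85.4–127) in WT, a ratio of 0.636 (0.466–0.864). Angiogenic nuclei had 34.1 CPM in Q150X 3dpMI and 22.4 CPM in WT 3dpMI, and capillary nuclei had 22.0 and 24.5 CPM. Only the venous interval excluded 1 among these subtypes. Macrophages and monocytes had 34.3 CPM (29.9–39.2) from 218 UMIs in Q150X 3dpMI and 25.4 CPM (19.9–31.9) from 73 UMIs in WT 3dpMI, a ratio of 1.35 (1.03–1.79), against 1 UMI in each homeostasis library. They held 31.9% of all Icam1 UMIs in Q150X 3dpMI and 14.7% in WT 3dpMI, close to their 30.8% and 13.8% of the nuclei. Dendritic cells had 63.7 CPM in Q150X 3dpMI and 49.0 CPM in WT 3dpMI. Fibroblasts were lower and even, with 15.9 CPM in Q150X 3dpMI, 15.6 CPM in WT 3dpMI, 18.1 CPM in Q150X homeostasis and 11.5 CPM in WT homeostasis.

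Icam2, a constitutive endothelial ligand of LFA-1, was present in vascular endothelium of all 4 libraries. Vascular endothelial nuclei had 65.6 CPM (57.6–74.4) in Q150X 3dpMI, 44.1 CPM (38.1–50.8) in WT 3dpMI, 57.6 CPM (39.4–81.3) in Q150X homeostasis and 31.4 CPM (18.3–50.2) in WT homeostasis. Both Q150X libraries were above the WT library of the same time. Icam2 was 1.49 times as high in Q150X as in WT at 3dpMI (1.23–1.81) and 1.84 times at homeostasis (0.989–3.52), and the 3dpMI to homeostasis ratio was 1.14 in Q150X (0.787–1.70) and 1.41 in WT (0.856–2.46). The 3dpMI difference was found in the 4 named vascular subtypes in the same direction, with 70.0 and 49.3 CPM in venous nuclei, 70.3 and 51.5 CPM in angiogenic nuclei, 63.8 and 39.6 CPM in arterial nuclei and 50.4 and 36.0 CPM in capillary nuclei of Q150X and WT, though each subtype's own interval included 1.

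Icam2 was also found in the other endothelial types: endocardial nuclei had 45.5 CPM in Q150X 3dpMI, 31.7 CPM in WT 3dpMI, 35.5 CPM in Q150X homeostasis and 0 UMIs in WT homeostasis. Lymphatic endothelial nuclei had 29.1 CPM in Q150X 3dpMI and 21.5 CPM in WT 3dpMI, from 8 and 7 UMIs. Cardiomyocytes and fibroblasts were lower. Cardiomyocytes had 1.22, 1.42, 2.002 and 1.94 CPM and fibroblasts 2.31, 1.80, 2.54 and 3.06 CPM in Q150X 3dpMI, WT 3dpMI, Q150X homeostasis and WT homeostasis. Vascular endothelial nuclei held 62.1% of its UMIs in Q150X 3dpMI and 66.3% in WT 3dpMI.

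Vwf encodes von Willebrand factor, the multimer that tethers platelets and forms the core of Weibel-Palade bodies, and it had the most UMIs of the members, 5168 over the 4 libraries. The endocardium had a near-constant level: 1759 CPM (1623–1904) in Q150X 3dpMI, 1632 CPM (1515–1756) in WT 3dpMI, 1628 CPM (1465–1803) in Q150X homeostasis and 1730.1 CPM (1438–2064) in WT homeostasis. All 4 comparisons there gave ratios between 0.941 and 1.08 with intervals that include 1. Over the sub-clusters named endocardial the levels were 1304 CPM in Q150X 3dpMI, 1507 CPM in WT 3dpMI, 1591 CPM in Q150X homeostasis and 1685 CPM in WT homeostasis, and there the Q150X to WT ratio at 3dpMI was 0.866 (0.780–0.961). At homeostasis the endocardium held 69.1% of all Vwf UMIs in Q150X and 62.1% in WT from 3.91% and 2.14% of the nuclei; at 3dpMI it held 32.0% and 28.8% from 1.79% and 2.49%.

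The vascular endothelial level was lower and did vary: 268 CPM (251–285) in Q150X 3dpMI, 311 CPM (295–328) in WT 3dpMI, 149 CPM (119–185) in Q150X homeostasis and 35.0 CPM (21.1–54.7) in WT homeostasis. Both infarcted libraries were above both homeostasis libraries, and WT homeostasis was the lowest. Infarcted hearts had 1.79 times the homeostasis level in Q150X (1.43–2.27) and 8.88 times in WT (5.66–14.8). Vwf had a Q150X to WT ratio of 4.26 at homeostasis (2.56–7.43) and 0.861 at 3dpMI (0.792–0.935). The 3dpMI value was 1.03 with nuclei weighted equally and 1.35 (0.919–1.96) within cluster 2.

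Vwf followed vessel type. At 3dpMI it had 613 CPM in Q150X and 972 CPM in WT venous nuclei (ratio 0.631, 0.571–0.696), 201 and 214 CPM in arterial nuclei, 79.2 and 104 CPM in angiogenic nuclei and 53.5 and 46.8 CPM in capillary nuclei, so that venous exceeded arterial, arterial exceeded angiogenic and angiogenic exceeded capillary in both genotypes, the last pair in Q150X with overlapping intervals. At homeostasis cluster 2 had 50.9 CPM in Q150X and 14.0 CPM in WT (ratio 3.63, 1.47–10.2). Without the sub-clusters led by genes of other cells, the homeostasis levels were 65.0 CPM from 14 UMIs in Q150X and 8.97 CPM from 4 UMIs in WT. With the coarser sub-clustering the homeostasis venous nuclei had 443 CPM in Q150X and 284 CPM in WT (ratio 1.56, 0.899–2.86). That setting did not set apart the sub-cluster led by Hbb-bs, Cacna1c and Ryr2, so these venous nuclei can include nuclei of it. Fibroblast Vwf was 5.43, 11.5, 12.7 and 18.3 CPM in Q150X 3dpMI, WT 3dpMI, Q150X homeostasis and WT homeostasis. Cardiomyocyte Vwf was 1.53, 10.6, 5.67 and 5.49 CPM in the same order. Outside WT homeostasis these were far below the vascular endothelial class. In WT homeostasis the fibroblast level was above the 14.0 CPM of cluster 2 and the 8.97 CPM without the mixed sub-clusters. The part of free RNA in these levels was not tested.

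**Figure D2:**
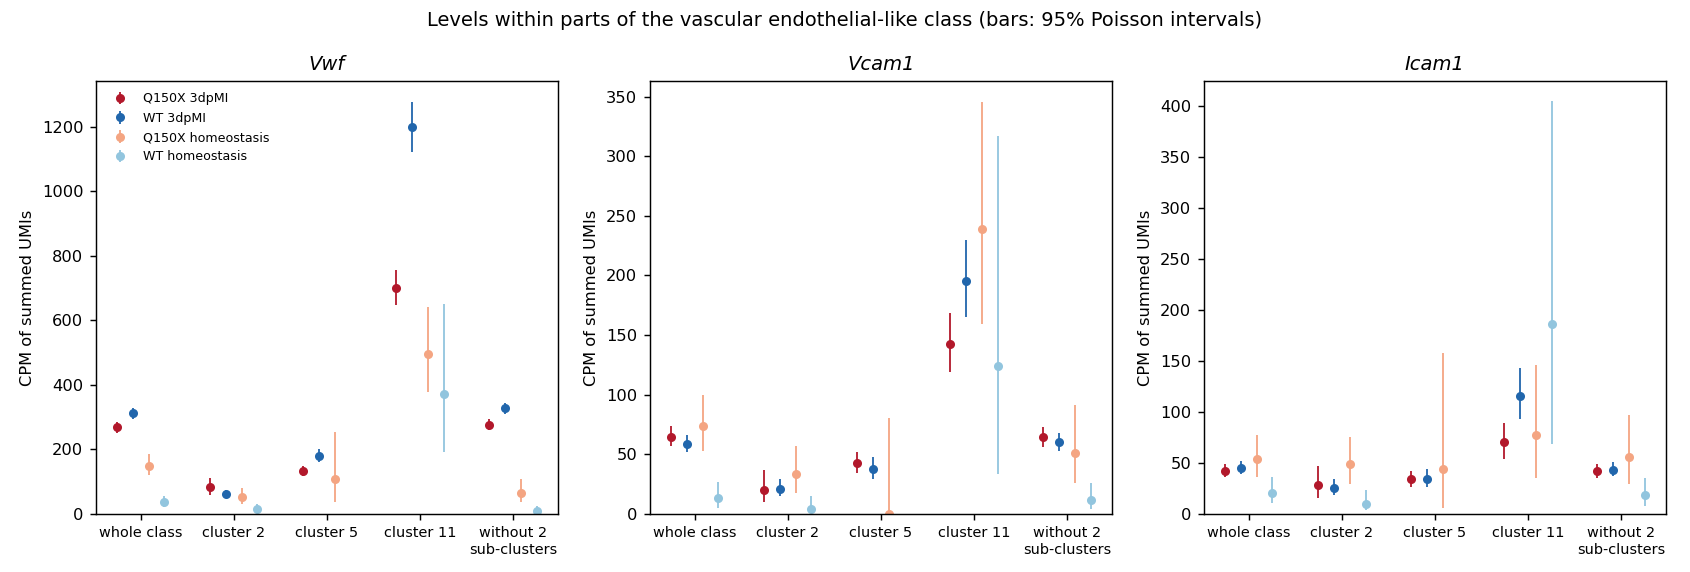
Level (CPM of summed UMIs, 95% Poisson bars) of Vwf, Vcam1 and Icam1 in the whole vascular endothelial class, in its 3 clusters and in the class without the 2 sub-clusters led by genes of other cells, for the 4 libraries with Q150X before WT and 3dpMI before homeostasis. Vwf in the whole class is 149 CPM in Q150X homeostasis and 35.0 CPM in WT homeostasis, and in cluster 2 it is 50.9 and 14.0 CPM. Cluster 11 has Selp and Vwf among its 10 leading genes, and a library with fewer than 25 nuclei in a cluster has no point.

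Lrg1 encodes a secreted glycoprotein that binds the TGF-beta co-receptor endoglin and promotes vessel growth. It had 344 UMIs in Q150X 3dpMI, 297 UMIs in WT 3dpMI, 23 UMIs in Q150X homeostasis and 3 UMIs in WT homeostasis. Vascular endothelial nuclei had 41.2 CPM (34.9–48.3) in Q150X 3dpMI and 31.1 CPM (26.1–36.8) in WT 3dpMI, against 3.60 CPM from 2 UMIs in Q150X homeostasis and 0 UMIs in WT homeostasis. As with the selectins, the infarcted libraries were high and the others near 0. After infarction the level was 11.5 times that at homeostasis in Q150X (3.12–95.5). In WT it was 5.62 times at the floor of 3 UMIs, with an exact lower limit of 4.51. The Q150X to WT ratio at 3dpMI was 1.33 (1.05–1.68). In nuclei of at least 1000 UMIs, of which the Q150X homeostasis library had 87 with 0 Lrg1 UMIs, the Q150X value at that floor was 1.66-fold.

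Venous nuclei had the highest vascular Lrg1, 104 CPM in Q150X 3dpMI and 78.4 CPM in WT 3dpMI (ratio 1.32, 0.985–1.78). Endocardial nuclei had 48.3 CPM in Q150X 3dpMI and 20.4 CPM in WT 3dpMI and 0 UMIs in both homeostasis libraries. Lymphatic endothelium had Lrg1 at both times, from few UMIs: 79.98 CPM from 22 UMIs in Q150X 3dpMI, 55.2 CPM from 18 in WT 3dpMI, 46.9 CPM from 4 in Q150X homeostasis and 34.3 CPM from 1 in WT homeostasis. Cardiomyocytes had 3.36 CPM from 11 UMIs in Q150X 3dpMI, 6.19 CPM from 48 in WT 3dpMI, 4.004 CPM from 12 in Q150X homeostasis and 0.646 CPM from 2 in WT homeostasis. Macrophages had 11.97 CPM in Q150X 3dpMI and 9.03 CPM in WT 3dpMI.

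Ackr1, an atypical receptor that carries chemokines across venular endothelium, was close to the limit of these libraries. It had 29 UMIs in Q150X 3dpMI, 10 UMIs in WT 3dpMI, 1 UMI in Q150X homeostasis and 0 UMIs in WT homeostasis. Of these, 17 and 6 UMIs of the 3dpMI libraries lay in venous nuclei, giving 15.1 CPM (8.78–24.1) in Q150X and 6.03 CPM (2.21–13.1) in WT, a ratio of 2.50 (0.940–7.74). In vascular endothelial nuclei as a whole the ratio was 2.88 (1.14–8.22). Over all nuclei the Q150X level was 1.07 CPM at 3dpMI and 0.119 CPM at homeostasis, a ratio of 9.0005 (1.49–368) that rests on 1 homeostasis UMI. The vascular endothelial homeostasis nuclei held 1 UMI in Q150X and 0 UMIs in WT, too few for a ratio within the class.

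**Figure D3:**
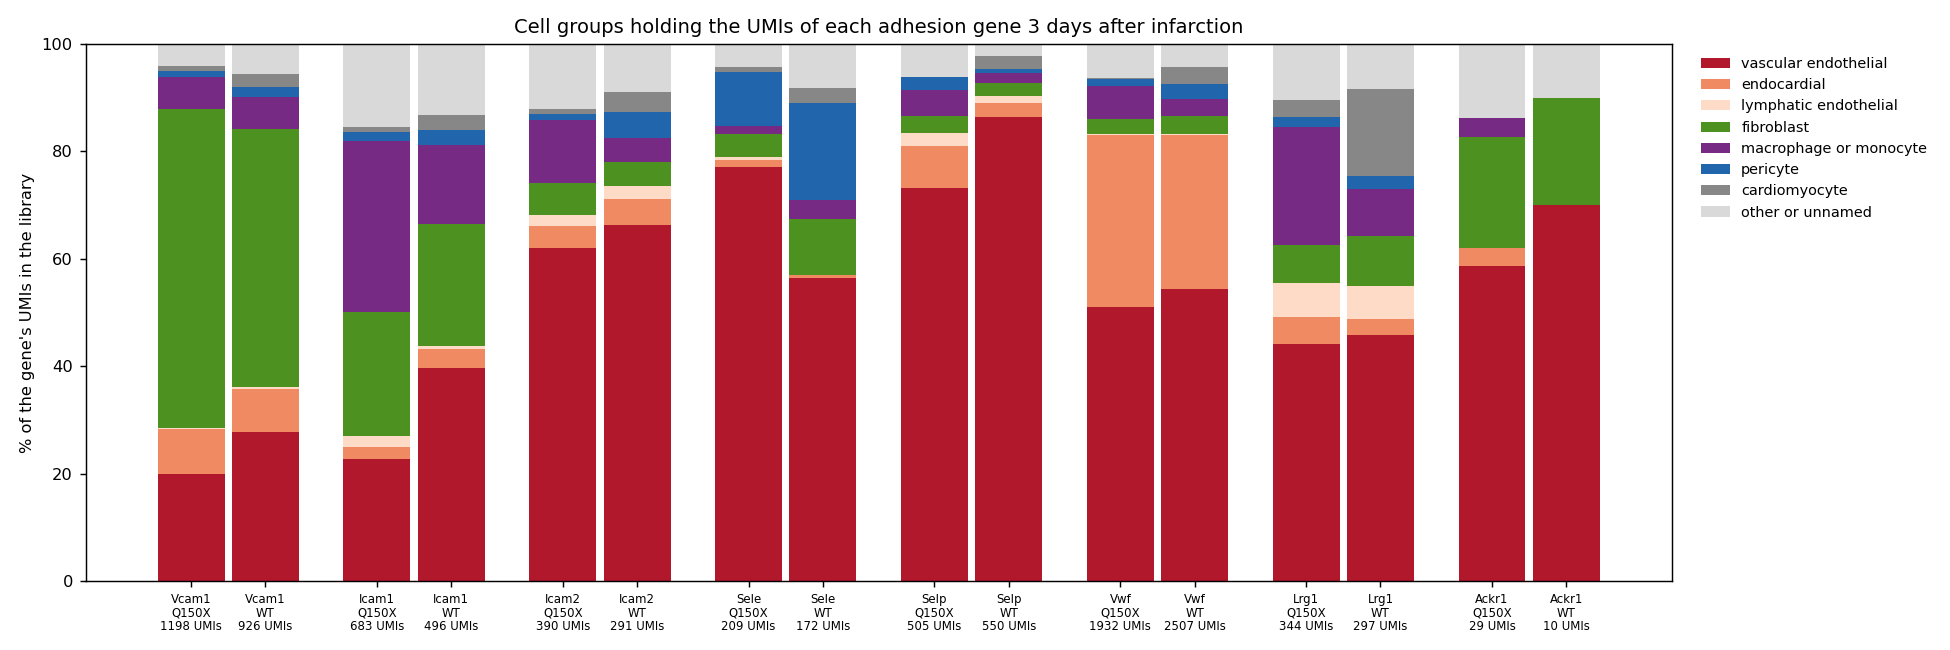
Share of each member's UMIs (%) by cell group in the 2 infarcted libraries, Q150X left of WT. Vascular endothelial nuclei hold 77.0% of Sele UMIs in Q150X and 56.4% in WT, whereas fibroblasts hold 59.3% and 48.1% of Vcam1 UMIs.

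Across the 8 members, the comparison of 3dpMI with homeostasis in vascular endothelial nuclei gave more higher genes in WT hearts than in Q150X hearts. In Q150X, 7 members had the 20 UMIs over both libraries that a ratio required, and 3 of them (Sele, Selp and Lrg1) were at least 2-fold higher and 0 at least 2-fold lower, where 23.1% of all counted genes were higher and 6.26% lower. In WT, 6 of 7 counted members were at least 2-fold higher, all but Icam2, and 0 lower, where 24.8% of counted genes were higher and 3.07% lower. The median log2 ratio of the counted members was 0.84 in Q150X, against 0.28 for all genes, and 3.15 in WT, against 0.33 for all genes. With members at 0 homeostasis UMIs set to the floor of 3 UMIs, the WT median was 2.19. Both contrasts use a single library each, and a gene at 0 in homeostasis could be counted only if high at 3dpMI.

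For Q150X against WT at homeostasis, 4 members were counted in vascular endothelial nuclei, and 3 (Vcam1, Vwf and Icam1) were at least 2-fold higher, where 7.47% of all counted genes were higher and 2.23% lower; 0 members were lower. The median log2 ratio was 1.75, with the median of the members' lower and upper bounds at 0.86 and 2.72, and that of all genes was 0.06. The same library pair differed in the cardiomyocyte and erythroid marker sums given above. Without the 2 sub-clusters led by genes of other cells, 279 Q150X and 430 WT nuclei remained, and only 2 members could be counted. Their median log2 ratio was 1.23, with the medians of their bounds at -0.10 and 2.59, and that of all genes was 0.05. The part of other cells' RNA in these ratios was not tested beyond this. For Q150X against WT at 3dpMI, 8 members were counted and 1 (Ackr1) was at least 2-fold higher and 0 lower, where 2.91% of all counted genes were higher and 3.25% lower. The median log2 ratio was 0.27, with the median of the members' lower and upper bounds at -0.03 and 0.57, and that of all genes was 0.08. Between the infarcted libraries the members thus differed by less than 2-fold except Ackr1, with Sele at 1.97 just inside that limit.

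**Figure D4:**
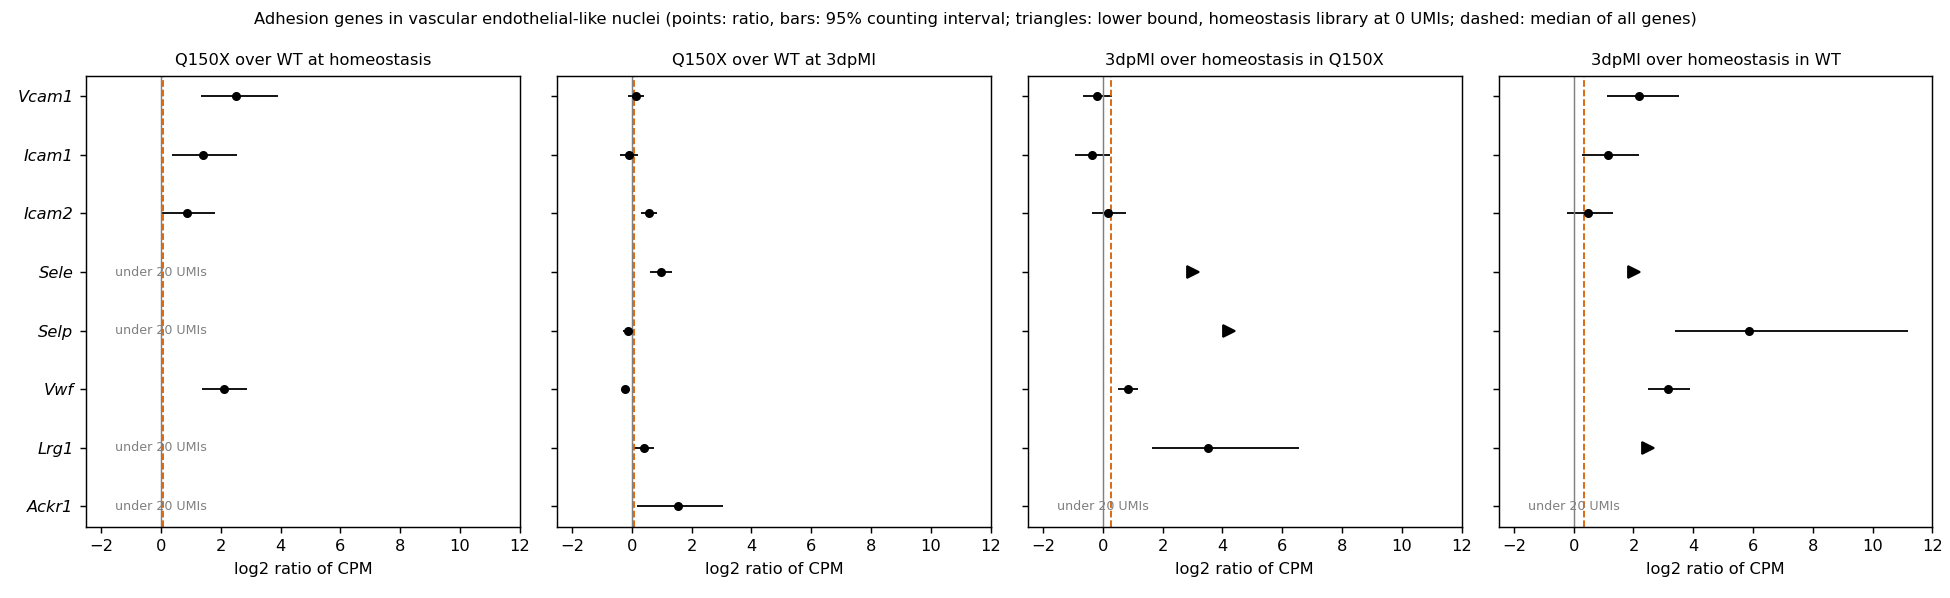
Log2 CPM ratio of each counted member in vascular endothelial nuclei for the 4 comparisons, with 95% counting intervals. Triangles mark ratios at the floor of 3 UMIs where the homeostasis library had 0 UMIs, and the dashed line is the median of all counted genes. For Q150X over WT, Vcam1 and Vwf lie at 2.51 and 2.09 at homeostasis and at 0.14 and -0.22 at 3dpMI.

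The genotype ratio itself was set against time. The log2 Q150X to WT ratio at 3dpMI minus that at homeostasis in vascular endothelial nuclei was -2.38 for Vcam1 (-3.56 to -1.19), -2.31 for Vwf (-3.04 to -1.58), -1.51 for Icam1 (-2.55 to -0.47) and -0.30 for Icam2 (-1.19 to 0.59). In the endocardial class it was 0.20 for Vwf (-0.14 to 0.53) and 0.16 for Vcam1 (-0.87 to 1.19). Over the sub-clusters named endocardial it was -0.13 for Vwf (-0.45 to 0.20) and -1.13 for Vcam1 (-2.33 to 0.07). In fibroblasts it was -0.89 for Vcam1 (-1.66 to -0.12). Within cluster 2 Vwf gave -1.42 (-2.77 to -0.07). These intervals are normal approximations and hold counting error alone, so they compare 4 libraries and not the conditions.

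In venous nuclei at 3dpMI, 1 of 8 counted members (Ackr1) was at least 2-fold higher in Q150X than in WT and 0 lower, where 3.67% of genes were higher and 2.18% lower. Vwf, Selp and Icam1 had ratios of 0.631, 0.668 and 0.636, while Sele, Icam2 and Lrg1 had ratios of 1.35, 1.42 and 1.32. In the endocardium 2 of 6 counted members (Selp and Lrg1) were at least 2-fold higher in Q150X at 3dpMI and 0 lower, where 3.84% of genes were higher and 3.83% lower. Over the sub-clusters named endocardial it was 3 of 7, with Sele added at 30.9 CPM from 16 UMIs in Q150X 3dpMI and 9.68 CPM from 5 UMIs in WT 3dpMI (ratio 3.19, 1.12–11.1). Over the endocardial class Sele had 8.53 and 2.26 CPM from 3 and 1 UMIs. The shares of all genes just given are those of the class. Over these sub-clusters the median log2 ratio was 0.49 for the counted members and 0.05 for all genes. In fibroblasts 2 of 7 (Sele and Vwf) were at least 2-fold lower in Q150X at 3dpMI and 0 higher, where 2.37% were higher and 2.51% lower. Sele had 0.905 CPM from 9 UMIs in Q150X and 2.49 CPM from 18 UMIs in WT, and Vwf 5.43 and 11.5 CPM. Of other endothelial adhesion and transmigration genes in these fibroblasts, 4 of 17 counted had a ratio above 1, with a median log2 ratio of -0.41. That of all genes was 0.05, and the part of endothelial RNA in fibroblasts was not tested.

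Genes of the same pathway were read in vascular endothelial nuclei from 6 lists. A list gene near 0 UMIs at homeostasis could reach the required 20 UMIs only if high at 3dpMI. The filter therefore favoured genes higher at 3dpMI, among the lists and among all counted genes alike. Each list count of 3dpMI over homeostasis stands against 23.1% of all counted genes higher in Q150X and 24.8% in WT. For Q150X against WT, 7.47% of all counted genes were higher and 2.23% lower at homeostasis. At 3dpMI 2.91% were higher and 3.25% lower. A list share near these is not a result about the list. Of 22 genes of NF-kB and cytokine signalling, 6 of 22 counted were at least 2-fold higher and 1 lower at 3dpMI than at homeostasis in Q150X (median log2 ratio 0.55), close to the 23.1% of all genes, and 12 of 22 were higher and 0 lower in WT (median 1.14). Il4ra, the receptor chain for interleukins that induce Vcam1, had 245 CPM in Q150X 3dpMI and 23.4 CPM in Q150X homeostasis (ratio 10.5, 6.10–19.8), and 196 CPM in WT 3dpMI and 27.7 CPM in WT homeostasis (ratio 7.09, 4.27–12.7). For Q150X against WT at homeostasis 6 of 18 counted were at least 2-fold higher, among them Il1r1, the interleukin-1 receptor, with 344 CPM in Q150X and 151 CPM in WT (ratio 2.27, 1.74–2.98). Il1r1 was also among the venous markers. Cluster 11, with Selp and Vwf among its leading genes, held 18.9% of Q150X and 5.30% of WT homeostasis endothelial nuclei. The part of vessel type in the Il1r1 ratio was not tested. At 3dpMI 0 of 22 passed 2-fold between genotypes; Nfkbiz, an inducible NF-kB cofactor, had 109 CPM in Q150X and 65.6 CPM in WT.

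Of 13 endothelial chemokine and cytokine genes, 8 of 10 counted were at least 2-fold higher at 3dpMI than at homeostasis and 0 lower in Q150X (median log2 ratio 3.13), and 7 of 11 were higher and 1 lower in WT (median 2.89). Between genotypes at 3dpMI 1 of 12 was higher and 1 lower; Cxcl2, a neutrophil chemokine, had 10.6 CPM in Q150X 3dpMI and 2.74 CPM in WT 3dpMI (ratio 3.86, 1.98–8.09). Cxcl12, which retains and guides leukocytes, had 250 CPM in Q150X and 622 CPM in WT at homeostasis (ratio 0.402, 0.328–0.492). Neutrophil markers in these nuclei summed to 82.7 CPM in Q150X 3dpMI, 60.3 CPM in WT 3dpMI, 5.40 CPM in Q150X homeostasis and 7.38 CPM in WT homeostasis.

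Of 17 Weibel-Palade body genes, 5 of 13 counted were at least 2-fold higher and 1 lower at 3dpMI in Q150X, and 4 of 14 higher and 1 lower in WT, the WT share being close to the 24.8% of all genes. At homeostasis 2 of 8 were higher in Q150X than in WT, both of them parts of the machinery that holds or moves the granules: Myrip with 212 CPM in Q150X and 62.7 CPM in WT (ratio 3.38, 2.29–5.11) and Rab27a with 149 and 53.5 CPM (ratio 2.79, 1.81–4.42). At 3dpMI 0 of 14 passed 2-fold between genotypes. Of 18 other endothelial adhesion and transmigration genes, 4 of 16 counted in Q150X and 4 of 17 in WT were at least 2-fold higher at 3dpMI than at homeostasis and 0 lower, shares close to the 23.1% and 24.8% of all genes; Plvap, the protein of vessel-wall diaphragms, had 87.9 CPM in Q150X 3dpMI and 3.60 CPM in Q150X homeostasis (ratio 24.4, 6.71–203). Between genotypes, 0 of 17 passed 2-fold at 3dpMI and 1 of 13 was lower in Q150X at homeostasis.

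Of 14 leukocyte integrin and selectin ligand genes, 4 of 9 counted in Q150X and 6 of 8 in WT were higher at 3dpMI than at homeostasis. These are largely genes of leukocytes, and 18 macrophage markers summed to 1067, 790, 493 and 463 CPM in the vascular endothelial nuclei of Q150X 3dpMI, WT 3dpMI, Q150X homeostasis and WT homeostasis; the part of leukocyte RNA was not tested. Between genotypes 2 of 11 were higher and 1 lower in Q150X at 3dpMI, and 0 of 3 passed 2-fold at homeostasis. Of 17 genes of LRG1 and endoglin signalling, 2 of 16 counted were higher at 3dpMI in each genotype, a share below the 23.1% and 24.8% of all genes; Tgfbr2 had 382 CPM in Q150X 3dpMI and 119 CPM in Q150X homeostasis, and 310 CPM in WT 3dpMI and 103 CPM in WT homeostasis. Between genotypes 0 of 16 passed 2-fold at 3dpMI, and 1 of 14 was lower in Q150X at homeostasis, Id1, a target of this signalling, with 68.4 CPM in Q150X and 159 CPM in WT.

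Likeness of pattern was measured as Pearson's r of log2(CPM + 10) over 18 units, each a subtype of endothelium in 1 library with at least 30 nuclei, among 6761 genes. These units share libraries and depth, so r is a description. Sele was most like Il1r1 (r = 0.90) and Lrrk1 (0.87), and Selp most like Ephb4 (0.89) and Lrrk1 (0.88). Il1r1 and Ephb4 are among the markers that named the venous units, so their r is not independent of that naming. Vcam1 was most like Nt5e (0.94) and Exoc3l2 (0.94), Vwf like Entpd1 (0.93) and Exoc3l2 (0.93), and Icam1 like Rab27a (0.81) and Mocs1 (0.77). Icam2 was most like Tmem68 and Snrpb (0.95 each), and Lrg1 like Igf1 and Il17ra (0.86 each). Among the members, Vcam1 with Vwf (0.94) and Sele with Selp (0.91) were the closest pairs, and Icam2 with Icam1 the least alike (-0.06). Ackr1, with 24 UMIs in endothelial nuclei, was not ranked.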

How the data were processed

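Nuclei of whole mouse hearts were profiled with a droplet kit that reads the 5' ends of RNA, in 4 libraries, 1 per group, grouped by the labels' genotype and treatment. The deposited count matrices list whole UMI counts for each gene in each nucleus. Per the file headers, Cell Ranger 7.1.0 wrote them; the submitters' processing notes name the build GRCm39 and Scanpy, and the filter on barcodes before deposit is not given in the sources. Capture of 5' ends can differ between genes, so differences in level between genes are not read as differences in abundance. From the counts, nuclei with at least 500 UMIs, 300 genes and at most 10% mitochondrial UMIs were kept, and doublets were scored with Scrublet in Scanpy 1.11.5. In 2 libraries the caller marked under 0.5% of more than 5000 nuclei, and in those the top-scoring nuclei were left out, 0.8% for each 1000 nuclei of the library. This left 26152 of 28216 nuclei, from libraries of 5875965 to 32657625 UMIs, and the shallower homeostasis libraries give wider intervals.

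The 4 libraries were clustered together (2000 variable genes without the members, 30 components, 15 neighbours, Leiden resolution 1), and clusters were named from 17 marker lists where at least 3 markers were detected and the leading 10 genes did not go against the name. Of 20 clusters 3 stayed unnamed. The 6230 endothelial nuclei were clustered again at resolution 1, giving 9 sub-clusters named from 6 lists. UMIs were summed per class and library and divided by the class total to give CPM. A ratio required 20 UMIs over both libraries and 30 nuclei in each, a call meant at least 2-fold, and a fold against 0 UMIs was taken at a floor of 3 UMIs in that library. No test was run, since nuclei are not replicates. UMI counting removes duplicate reads, but intervals and floors cover counting error only.

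The 8 members and the 6 gene lists were chosen with earlier results of these data known. Genes named besides the members are the 2 with the most similar pattern per member and list genes with at least 50 UMIs at the ends of the ratios. Alternatives changed the filters on nuclei, doublet removal, clustering, the weight of nuclei, the normalization, the minimum count, the sub-cluster resolution and the depth; leaving out sub-clusters or keeping single clusters was added after seeing the data. The scripts were tested on simulated counts. Python 3.11.15, numpy 2.4.6, scipy 1.17.1 and pandas 2.3.3 were used.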

Additional observations from a re-analysis of the deposited data

Results flagged for a closer look

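Vascular endothelial Vwf was lower in Q150X than in WT after infarction and higher without it, with a Q150X to WT ratio of 0.861 at 3dpMI (268 CPM in Q150X and 311 CPM in WT) and 4.26 at homeostasis (149 CPM in Q150X and 35.0 CPM in WT). Within each genotype the level was higher at 3dpMI than at homeostasis, so both genotypes differed between the times in the same direction. It was the change in which genotype had the higher Vwf level that drew attention to this gene. The 3dpMI direction turned under some alternatives: the ratio was 1.03 with nuclei weighted equally and 1.35 within cluster 2. The difference was not tested against replicates, since each group is 1 library.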

How the results depend on the processing

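No paired analysis was possible because each group is 1 library and carries no replicate number; no replicate could be left out either. Of the median log2 ratios over the members under all alternatives, 41 stayed within the medians of the members' bounds, 4 moved beyond them and 1 changed sign. The 3dpMI to homeostasis median in WT, 3.15, was 4.51 with no minimum UMI count and 5.19 without the 2 sub-clusters led by genes of other cells. The same median in Q150X, 0.84, was 2.08 without those sub-clusters, 0.50 within cluster 11, and -0.16 within cluster 2, where 4 members could be counted. The cause was not tested. The Q150X to WT median stayed between 0.18 and 0.50 at 3dpMI and between 1.19 and 2.09 at homeostasis under the alternatives that kept the whole class. The Vwf log2 ratio of Q150X to WT at 3dpMI, -0.22, was 0.036 with nuclei weighted equally and 0.44 within cluster 2. Where a member's main interval excluded 1, its ratio kept its direction in 189 values under the alternatives and changed it in the 2 just given. Over the same alternatives the homeostasis log2 ratio of Q150X to WT ranged from 1.13 (no doublet removal) to 2.51 for Vcam1, from 1.08 to 2.59 for Icam1 and from 1.67 to 2.86 for Vwf. The 3dpMI to homeostasis log2 ratio in WT ranged from 3.57 (at the floor of 3 UMIs, in nuclei of at least 1000 UMIs) to 5.999 for Selp, 0.37 to 2.30 for Icam1 and 2.39 to 3.80 for Vwf. In nuclei of at least 1000 UMIs, 3dpMI over homeostasis in Q150X at that floor was 1.96-fold for Sele, 4.47-fold for Selp and 1.66-fold for Lrg1. Thinning to 500 UMIs moved 46 shares of nuclei beyond their intervals and 7 not.

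Limits: with 1 library per group the condition and the library cannot be told apart, so no difference here is shown to exceed the spread between hearts. The homeostasis libraries gave 7 to 83 UMIs of Vcam1, Icam1, Icam2 or Vwf in vascular endothelial nuclei, and at most 2 of the other members, which the depth limits. At 1000 UMIs per nucleus only 87 Q150X and 184 WT homeostasis endothelial nuclei remained. Cluster and subtype names were rebuilt from markers.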

Other observations

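Members were also read in the 3 clusters that no marker list named. A cluster led by Bank1, Fgr and Wdfy4, with genes of dendritic and B cells, had 49.7 CPM of Icam1 in Q150X 3dpMI and 38.3 CPM in WT 3dpMI, from 48 and 34 UMIs. Its Vwf was 83.9 CPM in Q150X 3dpMI and 83.3 CPM in WT 3dpMI. A cluster of shallow nuclei led by Nppa, Csf3r and Mdm2, nearly all from infarcted hearts, had 54.9 CPM of Vcam1 in Q150X 3dpMI and 53.6 CPM in WT 3dpMI, and 48.2 and 39.0 CPM of Icam1. The third, led by Nkain2 and Negr1, held at most 7 UMIs of any member in a library.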
